A study of Mus musculus with 4 samples.

Results

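Tau, encoded by Mapt, and 9 genes for protein kinases that phosphorylate it were followed through an experiment that sequenced the ribosome-bound mRNA of mouse hippocampal neurons after sleep deprivation. The genes were selected by symbol, a rule that uses no measured value, and all 10 were found once among the 28193 genes of the count table. They were Mapt, the glycogen synthase kinase 3 genes Gsk3a and Gsk3b, the tau tubulin kinase genes Ttbk1 and Ttbk2, the cyclin-dependent kinase gene Cdk5, and the microtubule affinity regulating kinase genes Mark1, Mark2, Mark3 and Mark4. All 10 passed the filter on low counts, which asked for more than 5 counts in every library and left 22338 genes for testing.

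Tau is a microtubule-associated protein of neurons that binds along axonal microtubules through repeats in its C-terminal part. Phosphorylation sets how firmly it binds: the Mark kinases act on serines within the repeats and loosen tau from the microtubule, while the Gsk3 kinases and Cdk5 act mostly on serines and threonines that precede a proline in the flanking regions. Heavily phosphorylated tau is the main component of the neurofibrillary tangles of Alzheimer's disease, and the hippocampal CA1 region is among the areas in which tangles appear early. The measurements described here are of mRNA on ribosomes, so they carry no information on the amount of tau phosphorylation or on the activity of the kinases.

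The method, fosTRAP-seq, sequences the mRNA bound to ribosomes of neurons that were active during a chosen window. Male C57BL/6J mice, 3 to 5 months old, received in dorsal CA1 one AAV with a 4-hydroxytamoxifen-dependent Cre recombinase under the c-Fos promoter and another with a Cre-dependent, HA-tagged Rpl22, which is part of the large ribosomal subunit. Every mouse was kept awake by gentle handling for 5 h on day 0 with 4-hydroxytamoxifen given during that time. The tagging was thus aimed at neurons active in a first sleep deprivation in both groups. The study also reports some tagging without the drug and in mice left undisturbed, so a part of the tagged neurons need not be specific to that deprivation. On day 7 the SD mice were kept awake for 5 h again, the NSD mice were left undisturbed, and ribosomes were pulled down with an HA antibody from the CA1 of 5 pooled mice per library, with n = 2 libraries per group. The labels name the dorsal hippocampus of a cFos-Cre:Ribotag genotype instead, and the description with AAVs in the study's methods is followed here. Since the NSD mice had also lost sleep once, the comparison is of a second deprivation with none on the day, and no group without any sleep loss was analysed here.

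Library totals ran from 153511705 to 195910235 estimated counts, and the members had between 4071 counts (Cdk5, NSD library 1) and 122375 counts (Mapt, SD library 2). The counting error of the lowest of these is 1.57%, whereas the coefficient of variation between libraries of a group was 0.22% to 11.2% for the members. Levels are in CPM, a gene's count relative to the library total after scaling with TMM factors, and errors are standard deviations over 2 libraries. Markers were summed as a description of the tagged population. The 8 listed for CA1 pyramidal neurons were Wfs1, Fibcd1, Pou3f1, Spink8, Mpped1, Camk2a, Slc17a7 and Neurod6, with a sum of 6046 to 6596 CPM. The 7 listed for dentate granule and CA3 neurons were Prox1, Dsp, C1ql2, Calb2, Bok, Iyd and Cpne4, at 67.3 to 74.8 CPM. Camk2a, Slc17a7 and Neurod6 are not confined to CA1, and the sums are over different genes. Their contrast therefore does not tell CA1 neurons from other excitatory neurons. Markers of other cells were also there, with sums of 1035 and 1023 CPM in NSD and 1003 and 927 CPM in SD for 9 interneuron markers, and over all libraries 435 to 486 CPM for 6 astrocyte markers, 1570 to 1894 CPM for 8 oligodendrocyte markers and 64 to 85.2 CPM for 7 microglia markers, and no marker of any list was at 0. The 8 endothelial markers moved with the groups, from 46.2 and 63.9 CPM in NSD libraries 1 and 2 to 37.3 and 23.9 CPM in SD libraries 1 and 2. Of the 8, 6 had their higher SD library below the lower NSD library, where 27.5% of all genes tested did. Once the batches were paired, edgeR called 6 of them lower, where 8.47% of all genes were called lower. With that pairing edgeR also called 3 CA1 markers and 1 interneuron marker lower. It called 1 oligodendrocyte marker higher, where 2.99% of all genes were called higher. Without the pairing edgeR called 0 markers in every list. In pools of this kind a change in the number of tagged cells and a change in mRNA per cell cannot be told apart, and the part of these marker differences in the values of the members was not tested.

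The start regions of Ttbk1, Ttbk2 and Gsk3b are shown because these were the 3 members with the largest differences between the groups. Each line is the stretch of 250 bases just before the most upstream RefSeq transcription start, 5′ to 3′ on the gene's strand. The sequences came from RefSeq promoter windows on GRCm38, which held 7 of the 10 members, and were placed on GRCm39 by an exact match. The Ttbk1 stretch is chr17:46798602-46798851 on the minus strand with 51.6% GC, the Ttbk2 stretch chr2:120681066-120681315 on the minus strand with 55.2% GC, and the Gsk3b stretch chr16:37909113-37909362 on the plus strand with 62.0% GC, against a median of 52.4% over all 32851 windows. Capitals mark the motifs found on either strand.
Ttbk1: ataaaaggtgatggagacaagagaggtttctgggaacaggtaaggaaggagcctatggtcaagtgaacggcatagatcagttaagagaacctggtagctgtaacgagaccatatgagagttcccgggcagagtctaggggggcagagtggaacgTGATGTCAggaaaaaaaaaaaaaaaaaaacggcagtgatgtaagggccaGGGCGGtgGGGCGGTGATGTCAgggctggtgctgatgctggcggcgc
Ttbk2: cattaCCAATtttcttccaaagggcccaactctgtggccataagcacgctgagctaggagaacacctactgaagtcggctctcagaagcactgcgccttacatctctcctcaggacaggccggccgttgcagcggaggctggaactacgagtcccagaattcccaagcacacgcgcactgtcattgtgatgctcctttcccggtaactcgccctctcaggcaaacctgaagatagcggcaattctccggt
Gsk3b: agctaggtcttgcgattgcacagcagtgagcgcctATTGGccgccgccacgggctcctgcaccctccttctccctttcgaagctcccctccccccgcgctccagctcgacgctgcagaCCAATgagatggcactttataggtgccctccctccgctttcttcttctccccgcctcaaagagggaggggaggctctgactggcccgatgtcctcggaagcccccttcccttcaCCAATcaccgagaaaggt
Of the motifs searched, the cAMP response element TGACGTCA, bound by CREB, was in 1.55% of all windows and in none of the 7 members with a window. A variant with one changed letter, TGATGTCA (TGACATCA on the other strand), added to the search after the sequences had been seen, lay at 96 and 33 bases before the start of Ttbk1 and was in 2.93% of all windows. The GC box GGGCGG, in 32.7% of windows, was found in Ttbk1 at 47 and 39 bases before the start, the last of them directly followed by the second variant element. The CCAAT box, in 33.8% of windows, lay at 245 bases before the start of Ttbk2 and at 215, 132 and 18 bases before that of Gsk3b. The AP-1 element TGACTCA, the site of Fos and Jun, was in 4.46% of windows, the E-box CACGTG in 6.02% and the FOXO element TGTTTAC in 3.17%, and none of them was in these 3 stretches. No 2 motifs marked in capitals share a base, and these matches are of letters only, since no binding was measured.

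Compared per kilobase of annotated exon, which corrects for gene length, Gsk3b had the highest NSD level of the members with 48.9 CPM per kb. Mapt followed with 40.7, Gsk3a with 35.2, Ttbk1 with 31.1, Ttbk2 with 23.8, Mark4 with 23.3, Mark2 with 17.6, Mark1 with 6.9, Cdk5 with 6.52 and Mark3 with 4.88 CPM per kb. The NSD libraries of Ttbk2 and Mark4 overlapped, as did those of Mark1 and Cdk5, while the other neighbours in this order did not. In the SD libraries Gsk3a, at 37.3 and 38.4, and Ttbk1, at 38 and 37.7 CPM per kb, overlapped, and no other neighbours did. The order depends on the length used: per kilobase of the longest coding transcript Mapt was first with 87 CPM per kb, ahead of Gsk3b with 57.6, Ttbk1 with 52 and Gsk3a with 44.3, and Cdk5 was last with 12 CPM per kb. Mapt has 87 annotated transcripts and a union of exons of 14334 bases, more than the 6705 bases of its longest coding transcript.

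SD was compared with NSD to ask which mRNAs differed on the ribosomes of the tagged neurons after the second deprivation. The test was edgeR's quasi-likelihood fit with Benjamini-Hochberg adjustment over all 22338 genes, and a call needed both a fold change beyond 1.2, up or down, and an adjusted p below 0.05. None of the 10 members was called, where 0.77% of all genes tested were called higher and 2.33% lower, and 4 members (Gsk3b, Ttbk1, Ttbk2 and Mark1) had an unadjusted p under 0.05 with a log2 fold change above 0, against 6.86% of all genes. With batch as a block, which pairs the first NSD with the first SD library and the second with the second, edgeR called 2 members, Ttbk1 and Ttbk2, both higher, where 2.99% of all genes and 3.77% of protein-coding genes were called higher. DESeq2 without the block called 3 members higher, Gsk3b, Ttbk1 and Ttbk2, where 2.95% of all genes and 3.86% of protein-coding genes were. The log2 fold change was above 0 for 9 of the 10 members (all but Mark3, and all 10 with no count filter or without NSD library 2) with a median of 0.13, beside a median of -0.016 over all genes tested and 0.018 over the 15551 protein-coding genes, of which 54.2% were above 0. For 6 members (Mapt, Gsk3b, Ttbk1, Ttbk2, Mark1 and Mark2) the lower SD library exceeded the higher NSD library, which held for 22% of all genes and 26.5% of protein-coding genes, and for the other 4 the groups overlapped.

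**Figure D1:**
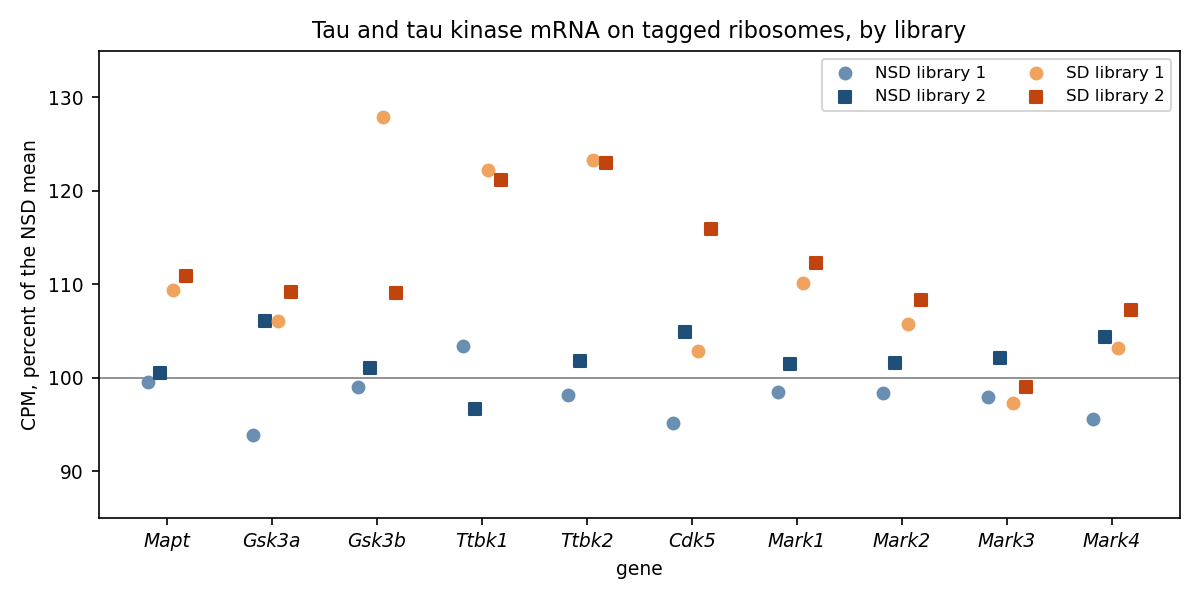
Level of each member in the 4 libraries, as CPM in percent of the mean of the 2 NSD libraries of that gene, with circles for library 1, squares for library 2, blue for NSD and orange for SD. Ttbk1 and Ttbk2 lie at 121.2% to 123.3% in both SD libraries, while the SD libraries of Gsk3b lie apart at 127.9% and 109.1%.

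Tau itself, Mapt (ENSMUSG00000018411, chr11:104122216-104222916, plus strand, GRCm39), was at 580 and 587 CPM in the NSD libraries and at 639 and 647 CPM in the SD libraries. Both SD libraries were above both NSD libraries, and the libraries of a group were close together. The means were 584 ± 4.49 CPM in NSD and 643 ± 6.09 CPM in SD (s.d., n = 2 each), a difference of 10.2%. The log2 fold change was 0.14 (standard error 0.085, 95% interval -0.05 to 0.33) with an edgeR adjusted p of 0.439, and it was 0.14 in batch 1 and 0.14 in batch 2. With the block the adjusted p was 0.236, and DESeq2 gave 0.11, so no fit called Mapt.

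The tau tubulin kinases had the largest fold changes of the members. Ttbk1 (ENSMUSG00000015599, chr17:46753374-46798601, minus strand), a kinase found mainly in neurons that phosphorylates tau as well as tubulin, was at 548 and 512 CPM in NSD and at 647 and 642 CPM in SD. The groups did not overlap, and the SD libraries were nearer to each other than the NSD libraries. The means were 530 ± 25.3 CPM in NSD and 645 ± 3.88 CPM in SD (s.d., n = 2 each). The log2 fold change of 0.28 (standard error 0.087, 95% interval 0.08 to 0.48), a 1.22-fold higher level, had an edgeR adjusted p of 0.118 and missed the threshold. It passed with the block at the same fold change (adjusted p = 0.0181), and in DESeq2 at a log2 fold change of 0.31 (adjusted p = 0.00111).

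Ttbk2 (ENSMUSG00000090100, chr2:120563297-120681085, minus strand), a related kinase that is also required for the assembly of primary cilia, was at 322 and 334 CPM in NSD and at 405 and 404 CPM in SD. Again the groups did not overlap, and relative to its level this gene had the smallest spread between SD libraries of all members. The means were 328 ± 8.56 CPM in NSD and 404 ± 0.876 CPM in SD (s.d., n = 2 each). Its log2 fold change was 0.30 (standard error 0.079, 95% interval 0.12 to 0.48), or 1.23-fold, with 0.33 in batch 1 and 0.27 in batch 2. The edgeR adjusted p was 0.0793 without the block, 0.00952 with it, and 0.00011 in DESeq2. Of the protein-coding genes tested, 6.79% had a log2 fold change as high as that of Ttbk2 or higher, and 7.54% one as high as that of Ttbk1 or higher. Exons of Ttbk2 share 3409 bases with Cdan1, an inherited anaemia gene annotated on the same strand, so reads there could be assigned to either. Cdan1 had 3396, 2709, 3262 and 3074 counts in NSD libraries 1 and 2 and SD libraries 1 and 2, or 4.87% of the Ttbk2 count, and its part in the Ttbk2 difference was not tested.

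The glycogen synthase kinases, which insulin signalling inhibits through Akt, differed in size and in how well the libraries matched. Gsk3b (ENSMUSG00000022812, chr16:37909363-38066446, plus strand), the form most often studied as a tau kinase, was at 476 and 485 CPM in NSD and at 615 and 524 CPM in SD. Both SD libraries were above both NSD libraries, but they were far apart, with a mean of 570 ± 63.9 CPM against 481 ± 6.56 CPM in NSD (s.d., n = 2 each). The log2 fold change of 0.24 (standard error 0.10, 95% interval 0.02 to 0.47) had an edgeR adjusted p of 0.229, with 0.37 in batch 1 and 0.11 in batch 2. With the block the adjusted p was 0.0603 and in DESeq2 0.0337. The value rested on SD library 1: without it the log2 fold change was 0.13, and without SD library 2 it was 0.37.

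Gsk3a (ENSMUSG00000057177, chr7:24927683-24937276, minus strand), the other form, was at 116.9 and 132.3 CPM in NSD and at 132.2 and 136.0 CPM in SD. The groups overlapped, since the second NSD library reached the level of the first SD library. Its log2 fold change was 0.11 (standard error 0.079, 95% interval -0.07 to 0.29; edgeR adjusted p = 0.544), with 0.05 without NSD library 1 and 0.20 without NSD library 2. An annotated lncRNA on the opposite strand, 9130221H12Rik, shares 1048 exon bases with Gsk3a and had 6.27% of its count. The Gsk3b count was 4.072 and 3.671 times the Gsk3a count in the NSD libraries and 4.649 and 3.855 times in the SD libraries, which overlap.

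Cdk5 (ENSMUSG00000028969, chr5:24623239-24628528, minus strand), a kinase that neuronal activator proteins switch on in place of cyclins, had the lowest CPM of the members, at 24.6 and 27.1 in NSD and 26.6 and 29.9 in SD. The groups overlapped and both second libraries were the higher ones of their group. Its log2 fold change was 0.13 (standard error 0.090, 95% interval -0.08 to 0.34; edgeR adjusted p = 0.508), and it ran from 0.05 without SD library 2 to 0.21 without SD library 1, with 0.20 without NSD library 2.

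Among the Mark kinases, Mark1 (ENSMUSG00000026620, chr1:184628986-184731767, minus strand) had the largest difference. It was at 67.6 and 69.7 CPM in NSD and at 75.6 and 77.1 CPM in SD, without overlap, and the means were 68.6 ± 1.5 and 76.3 ± 1.05 CPM (s.d., n = 2 each). The log2 fold change was 0.15 (standard error 0.064, 95% interval 0.01 to 0.30) with an edgeR adjusted p of 0.238, or 0.0847 with the block and 0.144 in DESeq2. Mark2 (ENSMUSG00000024969, chr19:7252761-7319225, minus strand), which also acts in cell polarity, was at 148 and 153 CPM in NSD and at 159 and 163 CPM in SD, again without overlap. Its log2 fold change was 0.10 (standard error 0.069, 95% interval -0.06 to 0.26; edgeR adjusted p = 0.515).

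The other Mark kinases overlapped between the groups. Mark3 (ENSMUSG00000007411, chr12:111540957-111622655, plus strand) was at 65 and 67.7 CPM in NSD and at 64.5 and 65.7 CPM in SD, and it alone had a negative log2 fold change, of -0.03 (95% interval -0.17 to 0.12; edgeR adjusted p = 0.884), which became 0.0014 with no count filter and 0.0034 without NSD library 2. Mark4 (ENSMUSG00000030397, chr7:19158700-19192746, minus strand) was at 112 and 123 CPM in NSD and at 121 and 126 CPM in SD, with a log2 fold change of 0.07 (95% interval -0.09 to 0.24; edgeR adjusted p = 0.674), or 0.04 without NSD library 1 and 0.14 without NSD library 2. The intervals of Mapt, Gsk3a, Cdk5, Mark2 and Mark4 hold 0 as well as differences near the fold change threshold of 1.2, which is 0.26 on the log2 scale, so 2 libraries per group do not tell these apart. For Mark3 the upper limit of 0.12 was below that threshold.

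**Figure D2:**
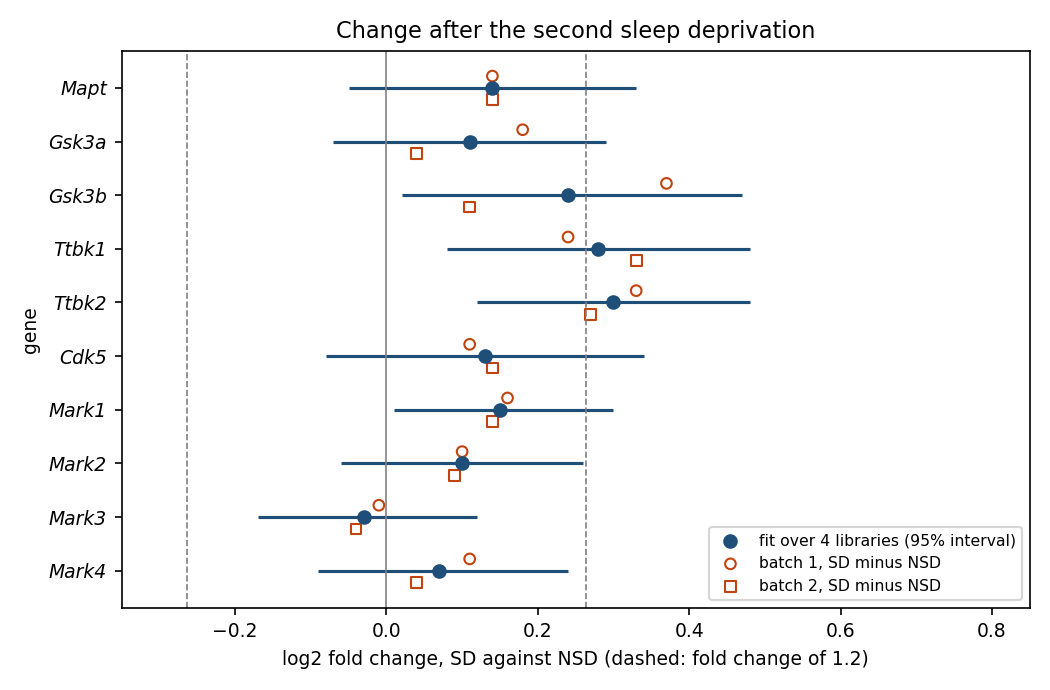
Log2 fold change, SD against NSD, of each member, with filled points and bars for the edgeR fit over 4 libraries and its 95% interval, open circles for batch 1 and open squares for batch 2. Dashed lines stand at a fold change of 1.2 in either direction, and only Ttbk1 (0.28) and Ttbk2 (0.30) have a fitted value beyond the line, while the batches of Gsk3b stand apart at 0.37 and 0.11.

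A ratio of 2 members within a library does not depend on the scaling between libraries, so each kinase was also set against Mapt. The count of Ttbk1 was 0.944 and 0.873 times that of Mapt in NSD and 1.014 and 0.992 times in SD. For Ttbk2 the ratio was 0.555 and 0.570 in NSD and 0.634 and 0.624 in SD. For both kinases the SD ratios were above the NSD ratios, by 0.14 and 0.16 on the log2 scale. Mark3 went the other way, from 0.112 and 0.115 in NSD to 0.101 and 0.101 in SD, a log2 difference of -0.17, as did Mark2 with a log2 difference of -0.04. The ratios of Gsk3a, Gsk3b, Cdk5, Mark1 and Mark4 to Mapt overlapped between the groups. The count of Ttbk2 was 0.588 and 0.653 times that of Ttbk1 in NSD and 0.625 and 0.629 times in SD, so the ratio of the 2 tau tubulin kinases overlapped too. A two-sided exact permutation test of 2 libraries against 2 cannot give a p below 0.333, which was the p of each of the 4 ratios that did not overlap among the 11 computed, so none of these differences could pass a threshold of 0.05.

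**Figure D3:**
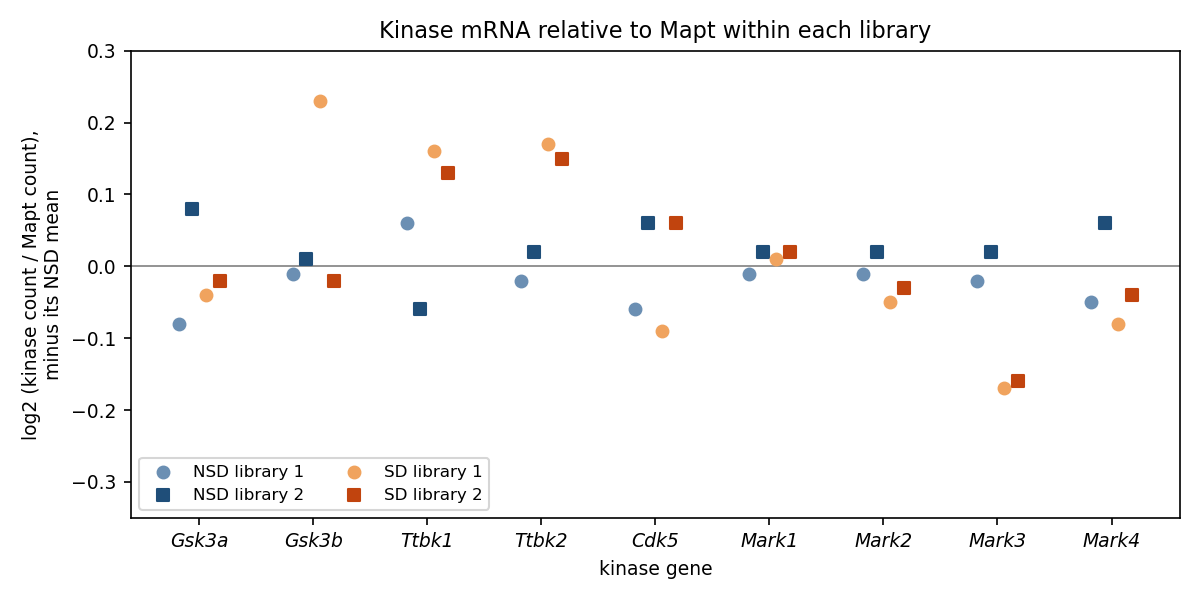
Ratio of each kinase count to the Mapt count in the same library, on the log2 scale and less the mean of the 2 NSD libraries, with circles for library 1, squares for library 2, blue for NSD and orange for SD. Both SD libraries of Ttbk1 and Ttbk2 lie above the NSD libraries and both of Mark3 below them, and the SD libraries of Gsk3b fall on either side of 0.

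The genes whose profile over the 4 libraries was most like that of a member were found among the other 15550 protein-coding genes tested, by the distance between log2 CPM values centred on each gene's own mean. Nearest to Ttbk1 were Pak6, Adarb1 and Ccdc93, at distances of 0.013 to 0.020, and 317 genes lay within 0.1. For Ttbk2 these were Nus1, Slc25a30 and Ssbp3, at 0.009 to 0.019 and with 368 genes within 0.1, and Ttbk1 was only at rank 463 with a distance of 0.108. Nearest to Gsk3b were Gpatch4, Tubb6 and Zfp367, at 0.017 to 0.032, with 118 genes within 0.1. Mapt had Wdr20, Cldn12 and Shprh at 0.005 to 0.009 and 1780 genes within 0.1. With 4 libraries many genes have a similar profile, and these distances describe the libraries only.

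Around tau, 163 further genes in 7 lists were looked up: other kinases of tau, regulators of the kinases described above, tau phosphatases, other microtubule-associated proteins, tubulins, genes of tau folding, modification, turnover and uptake, and regulators of the splicing of Mapt exon 10, which encodes one of the microtubule-binding repeats. All 163 were tested, and edgeR called 0 higher and 2 lower, both of them splicing regulators, where 0.77% of all genes were called higher and 2.33% lower. With the block 3 of the 163 were called higher and 7 lower, where 2.99% of all genes were called higher and 8.47% lower. In neither fit did the lists as a whole exceed the share over all genes. The share called lower among protein-coding genes was not computed for these fits, so an excess over protein-coding genes was not tested.

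Of the 17 regulators of exon 10 splicing, 13 had a log2 fold change below 0 and the median was -0.11, beside 0.018 over the protein-coding genes. Leaving out SD library 1 moved it to -0.18 and leaving out NSD library 2 to -0.04, where 11 of the 17 were below 0. Srsf11, a splicing factor of the SR family, fell from 38.0 and 35.1 CPM in NSD to 29.2 and 27.3 CPM in SD, or by 0.37 in log2 (standard error 0.078), at an adjusted p of 0.0472 in edgeR. The groups did not overlap for Srsf11. Of the 17 genes, 9 had both SD values below both NSD values, against 27.5% of all genes, and 7 had an unadjusted p under 0.05. DESeq2 called Srsf11 too (adjusted p = 0.00588), while in edgeR the call was lost without NSD library 1 and with protein-coding genes only. With the block edgeR also called Rbmx (log2 fold change -0.33, adjusted p = 0.00749), Srsf2 (-0.27, 0.00776), Tra2a (-0.29, 0.0133) and Clk2 (-0.32, 0.0216) lower, so that 6 of the 17 were called, where 8.47% of all genes were. DESeq2 called 3 of the 17 lower, Rbmx and Srsf11 among them, where 5.71% of all genes were called lower. Rbmx and Tra2a are RNA-binding splicing regulators, Srsf2 is an SR protein, and Clk2 is a kinase that phosphorylates SR proteins. The counts are per gene, so the share of Mapt mRNA with exon 10 was not measured.

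In the other 6 lists edgeR called 0 genes without the block and 4 with it, DESeq2 called 3 (Akt2, Gskip and Fkbp5), and their medians lay between 0.05 and 0.07. Single libraries moved these medians: with one left out, that of the tau phosphatases ran from 0.01 (without NSD library 1) to 0.12 (without NSD library 2), that of the tubulins from -0.01 (without SD library 2, with 6 of 13 above 0) to 0.11 (without NSD library 2), and that of tau folding, modification, turnover and uptake from 0.01 (without SD library 2) to 0.10 (without SD library 1). The median of the other microtubule-associated proteins ran from 0.04 (without SD library 2) to 0.11 (without NSD library 2), and those of the other tau kinases and of the kinase regulators stayed between 0.05 and 0.09. These calls are no more than the share over all genes, which in DESeq2 was 2.95% higher and 5.71% lower. The counts at an unadjusted p under 0.05 given for each list stand beside 19.1% of all genes tested. Of the 34 other tau kinases 24 were above 0 and 6 had an unadjusted p under 0.05, the smallest that of Abl2, an Abelson family tyrosine kinase, with a log2 fold change of 0.23 (adjusted p = 0.127 in edgeR). Of the 21 regulators of the member kinases 14 were above 0 and 6 had an unadjusted p under 0.05. Among these, Akt2, a kinase that inhibits Gsk3, was at 63.6 and 60.7 CPM in NSD and at 74.2 and 73.2 CPM in SD, a log2 fold change of 0.25 with an edgeR adjusted p of 0.0815, or 0.0124 in DESeq2, which also called Gskip, a Gsk3-binding protein. Strada, a partner of the kinase that activates the Mark kinases, was called only with the block, with a log2 fold change of -0.28 (adjusted p = 0.0362). Of the 26 tau phosphatase genes 17 were above 0 and 4 had an unadjusted p under 0.05, led by the protein phosphatase 2A scaffold gene Ppp2r1b with a log2 fold change of 0.24 (adjusted p = 0.169 in edgeR).

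Of the 25 other microtubule-associated proteins 18 were above 0 and 2 had an unadjusted p under 0.05. One of these, the microtubule crosslinking factor Mtcl1, was called higher with the block at a log2 fold change of 0.28 (adjusted p = 0.0402), although its NSD values of 124 and 106 CPM and SD values of 130 and 149 CPM gave 0.06 in batch 1 and 0.49 in batch 2. The 13 tubulins had none with an unadjusted p under 0.05, and 11 were above 0. The largest of them, Tubb6, had a log2 fold change of 0.26 with an interval of -0.07 to 0.59. Of the 27 genes of tau folding, modification, turnover and uptake 20 were above 0 and 5 had an unadjusted p under 0.05. With the block edgeR called 2 of these higher, among them Fkbp5, a co-chaperone of Hsp90 that glucocorticoids induce. Fkbp5 was at 36.1 and 43.7 CPM in NSD and at 51.9 and 54.4 CPM in SD, or 0.42 higher in log2 (edgeR adjusted p = 0.0559, or 0.00104 with the block).

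**Figure D4:**
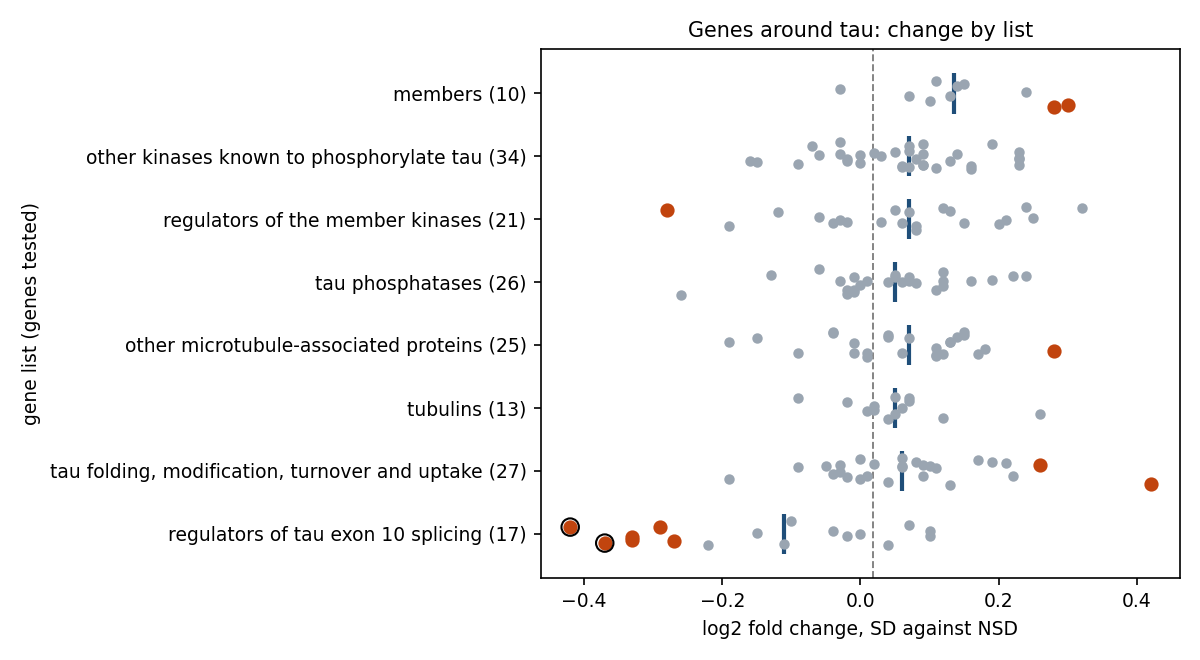
Log2 fold change, SD against NSD, of each gene in the members and the 7 lists of genes around tau, with the number of genes tested in brackets. Ringed points were called by edgeR without the block and orange points with the block, blue bars are list medians, and the dashed line is the median of 0.018 over protein-coding genes. The regulators of exon 10 splicing are the one list with a median below 0, at -0.11, and hold both ringed points.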

How the data were processed

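Ribosome-bound RNA of 4 pools of mice (2 NSD, 2 SD) was sequenced after ribosomal RNA depletion with a stranded kit and 150-bp paired-end reads. Poor 3' bases were trimmed by the authors, who used STAR 2.7.8a for alignment to mm39 and assigned reads to Ensembl release 110 genes with the Partek E/M model. What they deposited is one estimated count per gene and library, not normalized, and whether the counting used strand is not given in the sources used here.

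Estimated counts were rounded to whole numbers, and genes above 5 counts in all 4 libraries entered edgeR 4.0.16 under R 4.3.3 (TMM scaling with factors of 0.965 to 1.02, quasi-likelihood fit, condition as the only term, Benjamini-Hochberg adjustment, common dispersion 0.0296, prior degrees of freedom 6.38). The study's own count minimum and call thresholds were kept, and its tool, DESeq2 (here 1.42.0, without independent filtering), was an alternative. Chi-square divided by its degrees of freedom was 99.6 between the NSD and 53.4 between the SD libraries, far above counting noise. The labels give a batch number equal to the replicate number, so the numbers pair an NSD with an SD library, and across genes the same-numbered libraries deviated together (r = 0.178). The methods describe pools of 5 mice, so p-values measure the spread between pools.

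The members, the gene lists and the tests were chosen with earlier results of these data known, among them that Gsk3b, Ttbk1 and Ttbk2 are in the list of changed genes that the study drew from the same libraries, so none of these counts is independent evidence. Genes were named by a rule: all members, list genes that edgeR called or else the one with the smallest p, those called only with the block, the 3 nearest profiles of Mapt, Ttbk1, Ttbk2 and Gsk3b, and genes that overlap a member. The markers of CA1 and of dentate granule and CA3 neurons were named in full. Gskip was named after its values were seen. Results for some genes of the lists are counted but not reported here by name. Exon lengths and overlaps came from GENCODE M39, and levels per kilobase used the union of a gene's exons. Fits were tested on simulated counts with a lower dispersion than these data, no batch deviation and larger changes than those of the members. That test therefore does not show how well changes of the members' size are found here. Other alternatives were DESeq2 size factors, no count filter, filterByExpr, protein-coding genes only, no fold change threshold, each library left out, and DESeq2 with the block, which was added after seeing the data.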

Additional observations from a re-analysis of the deposited data

How the results depend on the processing

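The number of members called was 0 in edgeR without the block, 2 (Ttbk1 and Ttbk2) with the replicate block that pairs the libraries by batch, 3 in DESeq2 and 2 in DESeq2 with the block, where Gsk3b had an adjusted p of 0.00697 but a fold change under 1.2, and 0 under every other setting tried, each left-out library included. Over the 11 alternative fits the log2 fold change of Ttbk2 stayed between 0.28 and 0.33 (adjusted p 3.36e-05 to 0.239), that of Ttbk1 between 0.24 and 0.36 (adjusted p 0.000138 to 0.373), that of Gsk3b between 0.13 and 0.37 (adjusted p 0.00697 to 0.787), that of Mapt between 0.12 and 0.17 (adjusted p 0.0866 to 0.833), that of Mark1 between 0.13 and 0.18, that of Mark2 between 0.08 and 0.13, that of Gsk3a between 0.05 and 0.20, that of Cdk5 between 0.05 and 0.21 and that of Mark4 between 0.04 and 0.14. Mark3 turned from -0.03 to 0.0014 with no count filter, and with a library left out it ran from -0.03 to 0.0034. For Ttbk1 the log2 ratio to Mapt ran from 0.09 to 0.20 without 1 library and for Ttbk2 from 0.14 to 0.18.

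Over all genes, 172 were called higher and 520 lower. These counts were 668 and 1891 with the block, 660 and 1276 in DESeq2, 719 and 1410 in DESeq2 with the block, 50 and 80 with no count filter, 51 and 39 with protein-coding genes only, 1 and 0 with filterByExpr, where 4410 genes had an unadjusted p under 0.05, and 124 to 308 and 78 to 1955 with a library left out, when the lone library of a group was taken to vary like the others. The 2 calls among the genes around tau became 10 with the block, 6 in DESeq2, 7 in DESeq2 with the block, 0 with no count filter, with filterByExpr or with protein-coding genes only, 0 without NSD library 1 and 5 without SD library 1, a range of 0 to 5 with a library left out. Of all calls 24.9% were higher, against 33.4% with DESeq2 size factors in edgeR and 56.7% with protein-coding genes only, and this share was 61.4% without NSD library 1 and 13.0% without SD library 1. DESeq2 size factors moved the log2 fold changes by 0.022 and scaling on protein-coding genes by -0.021. The cause of these differences was not tested. The counting error of a member is at most 1.57%, and there are only 2 pools per group.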
